A study of Mus musculus with 6 samples.

Results

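The genes of the proteasome were examined in BV2 cells, an immortalized mouse microglial line, that received no treatment (the CON group) or recombinant sTREM-1 at 1 μg/mL over 6 h (the sTREM-1 group). sTREM-1 is the soluble form of a receptor found on myeloid cells, and the study asked how it changes microglial functions. The count table and the labels hold 3 libraries of each group, fewer than the replicate number in the methods, and the labels name no agent other than sTREM-1. The groups hold cultures of 1 cell line, which stand for microglia only as far as that line does, and nothing in the labels says that the libraries of a group came from independent experiments, so that p-values measure the spread between these libraries. The members were all rows of the count table whose symbol is Psma, Psmb, Psmc, Psmd, Psme or Psmg followed by a number, apart from Psmb8 and Psmb9, with at least 60 counts summed over the 6 libraries. Of 46095 rows, 45 matched the symbols and 43 reached the minimum. The member closest to that minimum was Psmg1 with 94 counts, and the excluded rows, the testis subunit gene Psma8 and the thymus subunit gene Psmb11, had 0 counts in every library.

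The proteasome degrades proteins that carry ubiquitin chains. Its barrel, the 20S core, is built of rings of alpha subunits (Psma genes), which form the gate, and rings of beta subunits (Psmb genes), some of which cut the substrate. The 19S cap binds the ubiquitin chain, removes it and threads the substrate into the barrel, with a ring of ATPases (Psmc genes) and a set of non-ATPase subunits (Psmd genes). Other activators (Psme genes) can take the place of the cap, and chaperones (Psmg genes and some Psmd genes) help to assemble the particle. In immune cells exposed to interferon, catalytic beta subunits are exchanged for immunoproteasome forms such as Psmb10, which alters the peptides offered to T cells.

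The libraries held between 40070633 and 45877107 counts, and the members took between 0.561% and 0.569% of them. Of 9 microglial marker genes, Cd68, Itgam, Csf1r and Trem2 had means between 116 and 605 CPM (counts relative to the library size after TMM scaling) in the CON group. Cx3cr1, Tmem119 and P2ry12 had means of at most 1.47 CPM in the same group, and Aif1, another defining marker, had 0 counts in all 6 libraries. The summed markers of neurons reached at most 0.302 CPM in any library, those of astrocytes 0.479 CPM, those of endothelium and fibroblasts 1.97 CPM and those of oligodendrocytes 7.84 CPM. The summed microglial markers ran from 1873 to 1905 CPM in the CON group and from 2116 to 2186 CPM after sTREM-1, and their part in the results below was not tested. Fewer cells and less RNA per cell cannot be told apart in such bulk samples.

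Single proteasome genes differed between the groups by small amounts, with more of them higher than lower after sTREM-1. All 43 members passed the filter on low counts and were tested with edgeR's quasi-likelihood test, and a gene was called when its Benjamini-Hochberg adjusted p-value over all 14120 tested genes was under 0.05. Of the members, 14 (32.6%) were called higher after sTREM-1, against 16.5% of all tested genes. Called lower were 5 members (11.6%), against 14.1% of all tested genes. The members are abundant genes, of which 41 had a mean of at least 10 CPM. Among all tested genes of at least 10 CPM, 23.4% were called higher and 18.7% lower. Every sTREM-1 library lay above every CON library for 15 members (34.9%, against 21.3% of all tested genes), and below for 6 members (14%, against 19.4%). With upper quartile factors in place of TMM, which lowered the median of all tested genes from -0.0017 to -0.0226 on the log2 scale, 10 members were called higher and 7 lower.

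**Figure D1:**
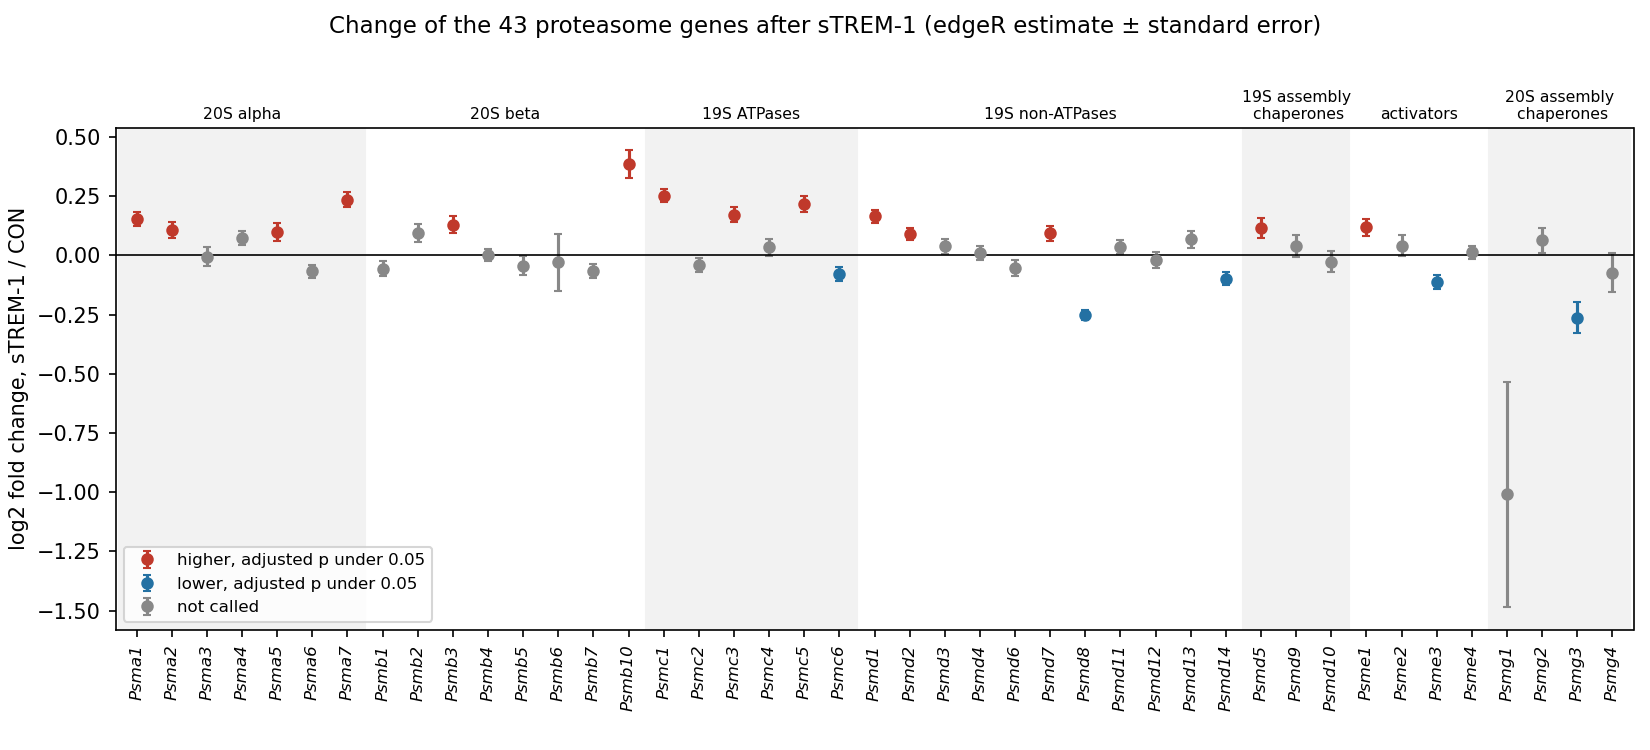
The log2 fold change of each of the 43 members (sTREM-1 over CON, edgeR estimate, vertical axis) is plotted with its standard error, and the members are ordered by their place in the complex along the horizontal axis. The 14 members called higher are red, the 5 called lower are blue and the 24 not called are grey. Psmb10 stands highest at 0.39, and the widest error belongs to Psmg1.

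The 24 other members were not called. The median log2 fold change of the 43 members was 0.035, a fold change of 1.02, beside -0.0017 for all tested genes. It was 0.074 for the 15 genes of the 20S core and 0.035 for the 17 ATPase and non-ATPase genes of the 19S cap. Without CON replicate 2 the median of all members was 0.0232 and that of the cap 0.0199, and without CON replicate 3 they were 0.0205 and 0.0128. Within single libraries, the summed level of the 20S genes ran from 1681 to 1743 CPM in the CON group and from 1757 to 1780 CPM after sTREM-1, so that the groups did not overlap. That of the cap genes ran from 3166 to 3197 CPM and from 3171 to 3210 CPM, and overlapped. The variation between libraries, as a biological coefficient of variation, was 2.57% for the median member, and the smallest change that was called was that of Psmc6, -0.08 on the log2 scale.

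**Figure D2:**
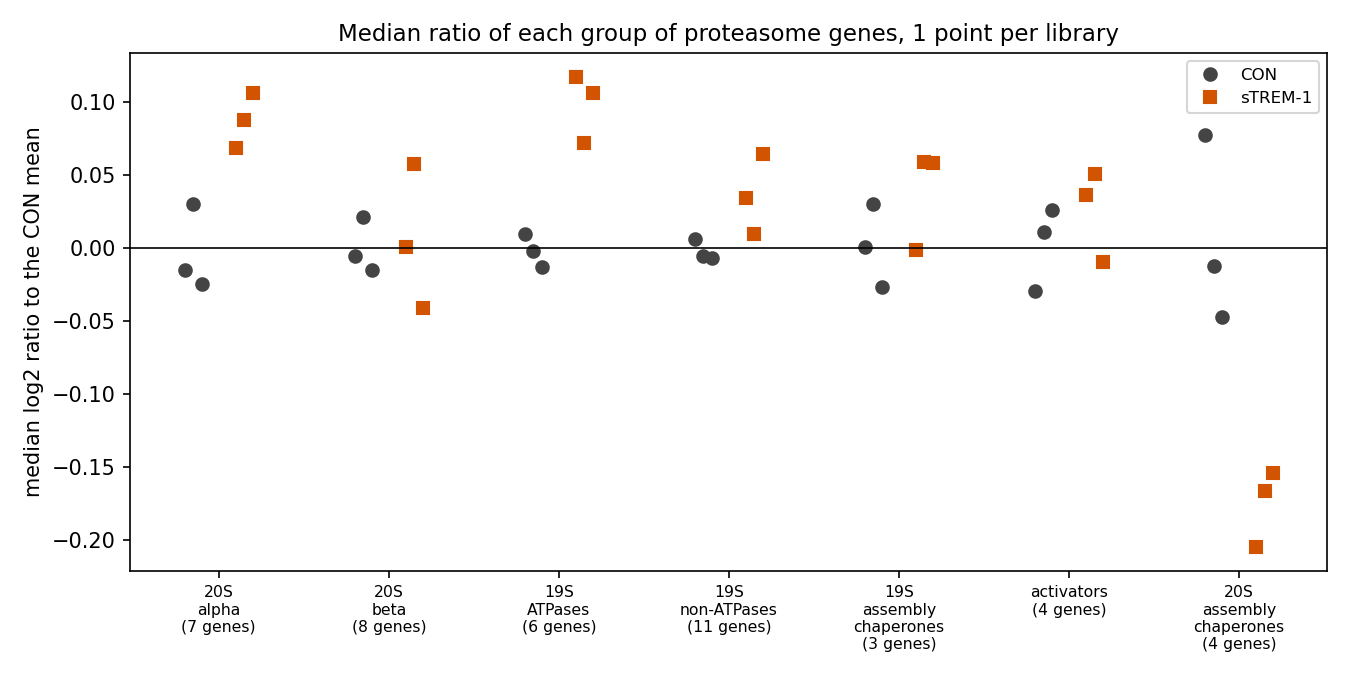
For each group of members, the median over its genes of the log2 ratio to the CON mean (vertical axis) is shown as 1 point per library, with CON libraries as dark grey circles and sTREM-1 libraries as orange squares. For the alpha subunits, the ATPases and, by a narrow margin, the non-ATPases all 3 sTREM-1 points lie above all 3 CON points, and for the 20S assembly chaperones they lie below.

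Among the 7 alpha subunits, which form the outer rings and the gate of the barrel, 4 (57.1%) were called higher and the other 3 were not called. Of all tested genes of at least 10 CPM, 23.4% were called higher. Psma7 had the largest change of the alpha subunits. Its level was 156, 155 and 144 CPM in the CON libraries and 179, 173 and 183 CPM in the sTREM-1 libraries, so that the groups were separate. The log2 fold change, with its standard error (SE), was 0.23 (SE 0.03, edgeR adjusted p = 6.9e-07). The gene lies on chromosome 2 of GRCm38 from 180036374 to 180042433. Psma1 had 134, 141 and 136 CPM in the CON group and 151, 154 and 152 CPM after sTREM-1. All of its sTREM-1 libraries were higher, with a log2 fold change of 0.16 (SE 0.03, edgeR adjusted p = 0.00013). Psma2 and Psma5 were also called, with log2 fold changes of 0.11 and 0.10, but Psma5 kept its call in only 4 of 13 other fits and Psma2 in 9. Psma5 has 2 near-identical pseudogene copies with counts of their own, and its log2 fold change with their counts added was 0.10 (edgeR adjusted p = 0.031). Psma4, which was separate between the groups, and Psma6, which was lower in every sTREM-1 library, had log2 fold changes of 0.07 and -0.07 and adjusted p-values of 0.0599 and 0.0700, and the log2 fold change of Psma3 was -0.01.

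Of the 8 beta subunits, 2 (25%) were called higher, the immunoproteasome gene Psmb10 and Psmb3, and the other 6 were not called. That share is near the 23.4% called higher among all tested genes of at least 10 CPM. Psmb10 encodes the immunoproteasome form that replaces Psmb7 at the trypsin-like site, and it had the largest rise of all members. Its level was 23.6, 24.4 and 25.5 CPM in the CON libraries and 33.7, 30.2 and 32.1 CPM in the sTREM-1 libraries. No sTREM-1 library came near a CON library, and the means were 24.5 ± 0.920 and 32.0 ± 1.76 CPM (SD, n = 3 each). The fold change was 1.31 (log2 fold change 0.39, SE 0.06, edgeR adjusted p = 4.2e-06), and it was called in all 13 other fits with log2 values between 0.35 and 0.42. Psmb10 lies on chromosome 8 of GRCm38 from 105935735 to 105938444. No near-identical copy and no overlapping exon of another gene was found for it in the GENCODE M21 annotation.

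Psmb5, Psmb6 and Psmb7 encode the catalytic subunits of the constitutive core, with chymotrypsin-like, caspase-like and trypsin-like activity. Psmb7 had 221, 216 and 202 CPM in the CON group and 203, 205 and 202 CPM after sTREM-1. The groups overlapped, and the log2 fold change was -0.06 (SE 0.03, edgeR adjusted p = 0.103). Without CON replicate 3, Psmb7 was called lower (log2 fold change -0.10, adjusted p = 0.00997), as it also was with upper quartile factors. Its exons share 405 bp with exons of Nek6 on the opposite strand, and the sources used here do not say whether counting used the strand. Psmb5 had 105, 101 and 91.5 CPM in the CON group and 98.1, 95.6 and 94.9 CPM after sTREM-1. Its CON libraries spread wider than the difference, which was -0.04 on the log2 scale (SE 0.04). Leaving out CON replicate 1 turned it to 0.0014, and leaving out CON replicate 3 gave -0.10 with an adjusted p of 0.0479.

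The ratio of Psmb10 counts to Psmb7 counts, taken within each library and not corrected for length, was 0.107, 0.113 and 0.126 in the CON group. After sTREM-1 it was 0.166, 0.147 and 0.159, higher in all 3 libraries than in any CON library. The difference of the log2 ratios was 0.45 (two-sided exact permutation p = 0.1, the smallest possible with 3 libraries in each group). Of the structural beta subunits, Psmb3 was called higher. It had 75.5, 77.1 and 81.7 CPM in the CON libraries and 85.3, 83.6 and 87.5 CPM after sTREM-1, and these groups were separate by a narrow margin. Its log2 fold change was 0.13 (SE 0.04, edgeR adjusted p = 0.00727), and without CON replicate 1 it was 0.11 with an adjusted p of 0.0616. Psmb3 has 5 near-identical pseudogene copies in the count table, and with their 668 counts added its log2 fold change was 0.14. Psmb1, Psmb2 and Psmb4 were not called, with log2 fold changes of -0.06, 0.09 and 0.003.

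**Figure D3:**
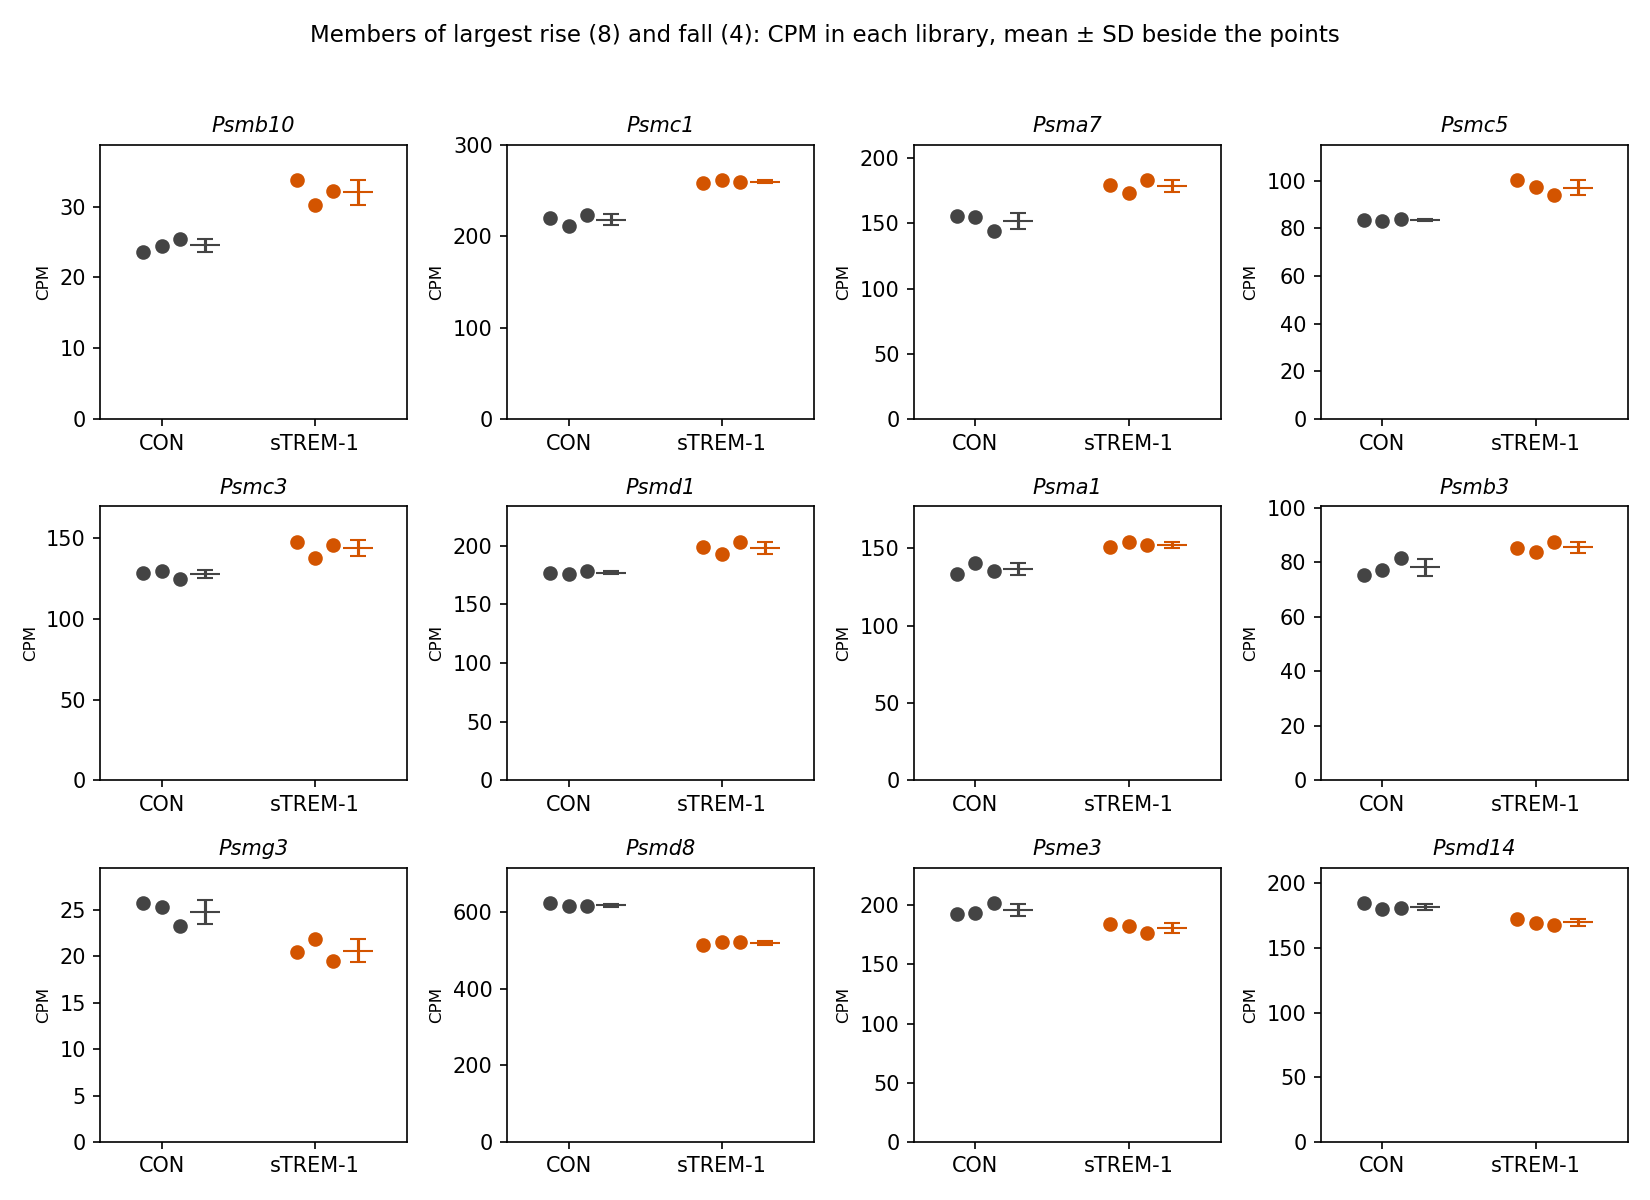
The CPM value of each library is plotted for members called with separate groups, the 8 that rose most and the 4 that fell. The mean and SD of 3 libraries stand beside the points, and the axes start at 0. All 3 orange sTREM-1 points lie above the dark grey CON points for Psmb10, Psmc1, Psma7, Psmc5, Psmc3, Psmd1, Psma1 and Psmb3, and below them for Psmg3, Psmd8, Psme3 and Psmd14.

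The 6 ATPases of the cap, which open the gate and unfold the substrate, fell into 3 called higher (50%), 1 called lower (16.7%) and 2 not called. Of all tested genes of at least 10 CPM, 23.4% were called higher and 18.7% lower. Psmc1, whose tail helps to open the gate, had 220, 211 and 223 CPM in the CON libraries and 258, 261 and 260 CPM in the sTREM-1 libraries. The sTREM-1 libraries were all higher and close to one another, with means of 218 ± 6.11 and 260 ± 1.59 CPM (SD, n = 3 each). The log2 fold change was 0.25 (SE 0.03, edgeR adjusted p = 8.4e-09). Psmc1 lies on chromosome 12 of GRCm38 from 100110154 to 100123405. A near-identical pseudogene copy, with 95.6% identity over 1306 bases, has no row in the count table, so that its counts could not be added. Psmc5 had 83.5, 83.2 and 84.1 CPM in the CON group and 100.2, 97.4 and 93.9 CPM after sTREM-1, a log2 fold change of 0.22 (SE 0.03, edgeR adjusted p = 1.0e-05). Every sTREM-1 library was above the CON libraries, which lay close together.

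Psmc3 had 129, 130 and 125 CPM in the CON libraries and 148, 138 and 146 CPM in the sTREM-1 libraries. These groups were also separate, with a log2 fold change of 0.17 (SE 0.03, edgeR adjusted p = 8.3e-05). It shares 215 bp of exon with Slc39a13 on the opposite strand. Psmc6 was called lower with overlapping groups, a log2 fold change of -0.08 and an adjusted p of 0.0408, and it lost the call in 4 of the 6 fits that left out 1 library. Psmc2 and Psmc4 had log2 fold changes of -0.04 and 0.03. The changes of the 6 genes of this ring thus ran from -0.08 to 0.25.

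Of the 11 non-ATPase subunits of the cap, 3 (27.3%) were called higher and 2 (18.2%) lower. These shares are near the 23.4% and 18.7% of all tested genes of at least 10 CPM. Psmd1 and Psmd2 encode the large scaffold subunits of the base, and Psmd2 offers a docking site for shuttles that deliver ubiquitinated proteins. Psmd1 had 177, 176 and 178 CPM in the CON libraries and 199, 193 and 203 CPM in the sTREM-1 libraries. The groups were well apart, with a log2 fold change of 0.16 (SE 0.03, edgeR adjusted p = 2.6e-05). It shares exon bases with Htr2b on the opposite strand and with Gm21972 on its own strand, 252 and 301 bp. Psmd2 rose with a log2 fold change of 0.09 and was called in all 13 other fits, and Psmd7, the lid partner of Psmd14, also rose with 0.09 but lost its call in 3 of them.

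Psmd8, a lid subunit, had the clearest fall. Its level was 624, 617 and 616 CPM in the CON libraries and 514, 522 and 522 CPM in the sTREM-1 libraries, with SDs of 4.37 and 4.47 CPM against a difference of the means from 619 to 520 CPM. The fold change was 0.840 (log2 fold change -0.25, SE 0.02, edgeR adjusted p = 1.2e-10), and it was called lower in all 13 other fits. Psmd8 lies on chromosome 7 of GRCm38 from 29174188 to 29180701, with no near-identical copy and no overlapping exon in that annotation. Psmd14, the deubiquitinase that strips the ubiquitin chain from the substrate, had 185, 180 and 181 CPM in the CON group and 172, 170 and 167 CPM after sTREM-1. All of its sTREM-1 libraries were lower, by -0.10 on the log2 scale (SE 0.03, edgeR adjusted p = 0.00598). The ubiquitin receptor gene Psmd4 had a log2 fold change of 0.01, and those of Psmd3, Psmd6, Psmd11, Psmd12 and Psmd13 ran from -0.05 to 0.07 with none called.

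The activators did not move as 1 group. Psme1 and Psme2 encode the subunits of an interferon-inducible ring that caps the core. Psme1 had 74.7, 74.2 and 72.7 CPM in the CON libraries and 81.9, 79.0 and 79.7 CPM after sTREM-1. It was higher in every sTREM-1 library, with a log2 fold change of 0.12 (SE 0.04, edgeR adjusted p = 0.0111), though without CON replicate 3 and without sTREM-1 replicate 1 the adjusted p was 0.0531 and 0.0720. Psme2 had 44.9, 47.4 and 47.8 CPM in the CON libraries and 48.5, 48.4 and 47.1 CPM after sTREM-1. These overlapped, with a log2 fold change of 0.04 (SE 0.04, edgeR adjusted p = 0.550). Psme2 is 99.4% identical over 794 bases to Psme2b, a row of its own with 5910 counts against 11888 for Psme2, so that reads may have been split between them. With the copies added to Psme2 its log2 fold change was 0.03 (edgeR adjusted p = 0.696). The count ratio of Psme1 to Psme2 was 1.58 ± 0.0742 in the CON group and 1.67 ± 0.0344 after sTREM-1 (SD, n = 3 each, two-sided exact permutation p = 0.2).

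Psme3 encodes a nuclear activator of the core. It had 193, 193 and 202 CPM in the CON libraries and 184, 183 and 176 CPM in the sTREM-1 libraries. Each sTREM-1 library was below the CON libraries, and the log2 fold change was -0.11 (SE 0.03, edgeR adjusted p = 0.00276). Psme3 lies on the same chromosome, 11, as Psme4, the gene of a further large nuclear activator. Psme4 had 195, 202 and 203 CPM in the CON group and 203, 207 and 196 CPM after sTREM-1, which overlapped, with a log2 fold change of 0.01 (SE 0.03) that turned to -0.01 with upper quartile factors.

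The assembly chaperones of the 20S core work as pairs, Psmg1 with Psmg2 and Psmg3 with Psmg4, that guide the alpha ring. Psmg3 had 25.7, 25.3 and 23.3 CPM in the CON libraries and 20.5, 21.9 and 19.5 CPM in the sTREM-1 libraries. It was lower in each of them, with a log2 fold change of -0.26 (SE 0.07, edgeR adjusted p = 0.00251), and it was called in all 13 other fits. Its exons share 280 bp with Gm26938 on the same strand, and the gene lies on chromosome 5 of GRCm38 from 139823592 to 139826885. Its partner Psmg4 had 16.3, 14.7 and 14.7 CPM in the CON group and 13.9, 13.7 and 15.9 CPM after sTREM-1. Those groups overlapped, with a log2 fold change of -0.07 (SE 0.08).

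Psmg2 had 29.1, 31.4 and 29.2 CPM in the CON libraries and 31.8, 31.2 and 30.7 CPM in the sTREM-1 libraries, which overlapped, with a log2 fold change of 0.06 (SE 0.05). Psmg1, the gene of its partner, was almost absent from the table, with 24, 18 and 20 counts in CON and 10, 16 and 6 in sTREM-1 libraries. They were lower in all 3 sTREM-1 libraries, but the log2 fold change of -1.01 had an SE of 0.48 and an adjusted p of 0.114. The median of the 4 genes, -0.17, is the mean of the values of Psmg3 and Psmg4. Of the chaperones of the cap, Psmd5 was called higher (log2 fold change 0.12, adjusted p = 0.0426) with overlapping groups and lost that call in 6 of 13 other fits, while Psmd9 and Psmd10 had log2 fold changes of 0.04 and -0.03.

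The subunits of the core and the cap are each present in fixed copy numbers in the particle, and their RNA levels per length differed. CPM was divided by the length of the longest protein-coding transcript of GENCODE M21. The median level in the CON group was 102 CPM per kb for the 20S genes and 75.0 CPM per kb for the 19S cap genes, while the chaperones of the cap ran from 13.7 to 33.7 CPM per kb and those of the core from 0.484 to 28.1 CPM per kb. Psmd8 was highest at 312 ± 2.20 CPM per kb (SD, n = 3), followed by Psmb4 with 199 ± 3.82 CPM per kb and Psma6 with 187 ± 3.76 CPM per kb. Among the constitutive beta subunits Psmb6 was far below the rest, with 225, 300 and 275 counts in CON and 277, 298 and 242 in sTREM-1 libraries. Its level was 8.16 ± 1.16 CPM per kb, against 70.8 CPM per kb for Psmb1, the next constitutive subunit, and 18.7 ± 0.702 CPM per kb for the immunoproteasome gene Psmb10. Psmb6 did not differ between groups beyond its spread (log2 fold change -0.03, SE 0.12). A pseudogene copy of Psmb6 with 92.1% identity held 9 counts in all 6 libraries, and other places to which its reads may have gone were not examined.

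The choice of transcript length set much of this order. With the median length of the protein-coding transcripts, Psmd2 came first with 568 CPM per kb and Psmd8 was next with 405 CPM per kb. Psmg1 and Psmb6 were lowest under both lengths, and Psmb10 was in place 39 and 41 of 43. The differences between neighbours in the order were often small, as for Psmd14 with 118 ± 1.57 and Psma4 with 118 ± 3.39 CPM per kb, which did not differ beyond their SD.

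**Figure D4:**
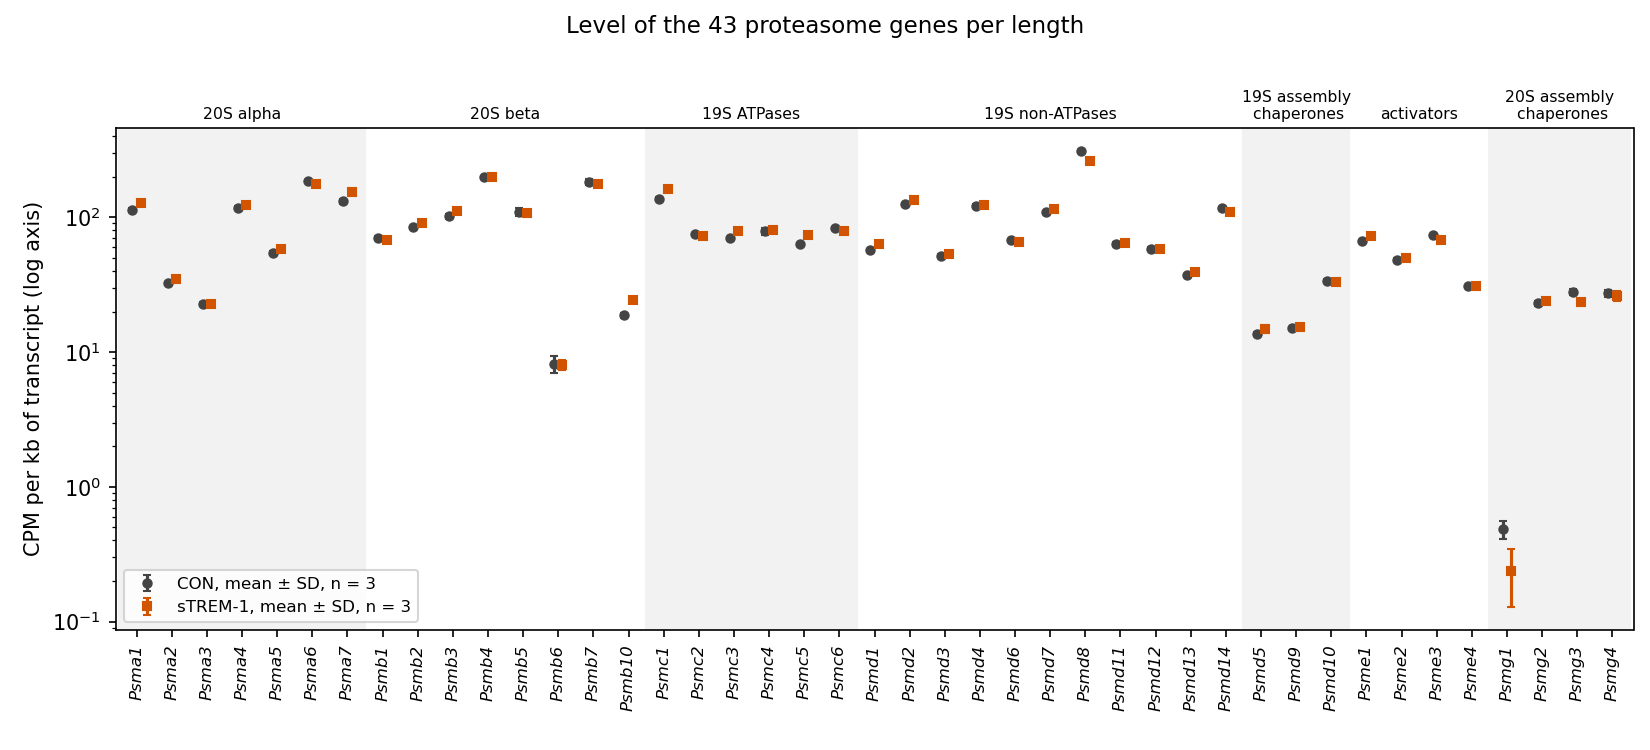
The level of each member per length is plotted on a logarithmic axis in CPM per kb of its longest protein-coding transcript, as the mean and SD of 3 CON libraries (dark grey circles) and 3 sTREM-1 libraries (orange squares). Psmd8 lies highest at 312 CPM per kb and Psmb6 and Psmg1 lie lowest, at 8.16 and 0.484 CPM per kb in the CON group.

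Proteasome genes are known to be driven together by the factor Nfe2l1 through antioxidant response elements, and immunoproteasome genes by factors such as Irf1. The promoters of 36 members could be read from RefSeq sequences (GRCm38.p6), and matches to 3 motifs, on both strands in the 250 bases before the start site, are given. TGACNNNGC, the core of the antioxidant response element, was in 5 of 39 member promoters (12.8%), against 10.2% of all 32851 promoters. It was found for Psmb5, Psmb6, Psmc6, Psmd9 and Psmd12, and so for 0 of the 12 members called higher that had a promoter sequence and for 1 of 5 called lower. CCAAT was in 12 member promoters (30.8%, against 33.8% of all), 5 of them of genes called higher and 2 of genes called lower. The interferon-stimulated response element, searched as GAAA, any bases NN and GAAA, was in 3 (7.69%, against 2.98%), those of Psmb3, Psmd4 and Psmd9, of which Psmb3 was called higher. In a window of 300 bases that also held bases after the start, it was in 5 (12.8%, against 3.44%). Psme1, called higher, and Psmg4 were added. TGACNNNGC was then in 6 (15.4%, against 12.4%), with Psme4 added, and CCAAT in 12 (30.8%, against 37.4%). None of these 3 strings contains another. The last 120 bases before the start are printed, 5′ to 3′ on the strand of the gene and without annotated exon bases, to show what these matches look like in Psmd9, Psmb6 and Psmd4, which were not called, in Psme3, which fell, and, with no match in the stretch, in Psmd2, which rose. Capitals mark the motifs.
Psmd9 (chr5:123228070-123228189, plus strand): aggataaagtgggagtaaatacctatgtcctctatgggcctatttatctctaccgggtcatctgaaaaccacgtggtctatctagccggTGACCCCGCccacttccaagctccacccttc
Psmb6 (chr11:70525237-70525356, plus strand): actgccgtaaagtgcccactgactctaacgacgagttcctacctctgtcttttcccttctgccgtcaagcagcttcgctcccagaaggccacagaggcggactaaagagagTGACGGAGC
Psmd4 (chr3:95042615-95042734, minus strand): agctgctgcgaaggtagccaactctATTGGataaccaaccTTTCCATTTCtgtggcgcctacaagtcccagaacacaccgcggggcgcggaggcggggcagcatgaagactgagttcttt
Psme3 (chr11:101316093-101316212, plus strand): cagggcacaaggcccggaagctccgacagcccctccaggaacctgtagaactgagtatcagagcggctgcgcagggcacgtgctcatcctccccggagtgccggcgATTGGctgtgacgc
Psmd2 (chr16:20651532-20651651, plus strand): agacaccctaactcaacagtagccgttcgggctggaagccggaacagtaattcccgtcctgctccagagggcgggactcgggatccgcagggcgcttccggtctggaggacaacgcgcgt
The capitals in Psmd9 and Psmb6 are TGACNNNGC, those in Psmd4 are CCAAT on the opposite strand and then the interferon-stimulated response element on the opposite strand, and those in Psme3 are CCAAT on the opposite strand. A match is a string of letters, and binding was not measured in these data.

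The regulators of proteasome genes were measured in the same libraries, as lists that are given by their counts. Of 8 genes for the transcription of proteasome genes, 1 was called higher and 1 lower, beside 16.5% and 14.1% of all tested genes. Among all tested genes of at least 10 CPM these shares were 23.4% and 18.7%. Nfe2l1 itself had a log2 fold change of 0.04 with an adjusted p of 0.154, although all 3 sTREM-1 libraries lay above the CON libraries. Vcp, the segregase that extracts Nfe2l1 and other proteins from membranes, rose with 0.16 (edgeR adjusted p = 1.0e-04), and Mafk, which encodes a dimer partner of Nfe2l1, fell by 0.33 on the log2 scale (adjusted p = 2.5e-06). Of the regulators of the immunoproteasome, Nlrc5 fell by 0.16 on the log2 scale (edgeR adjusted p = 0.000118) and Irf1 was not called, with a log2 fold change of -0.05.

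Among the partners of the proteasome, 11 of 12 listed genes were found and tested, of which 1 was called lower and 10 were not called. Shfm1, which encodes the smallest lid subunit, fell by 0.10 on the log2 scale (edgeR adjusted p = 0.0204). The ubiquitin receptor gene Adrm1 had a log2 fold change of -0.09, the inhibitor gene Psmf1 had 0.09 and the ubiquitin ligase gene Ube3c had 0.08. Pomp, the maturation factor of the core, named after its value was seen, had 9e-04. Of 16 genes for ubiquitin, its activation and its shuttles, 3 were called higher and 5 lower. Beside both lists stand the 16.5% called higher and 14.1% called lower of all tested genes. Most genes of both lists had at least 10 CPM, and among all tested genes of that level the shares were 23.4% and 18.7%. The polyubiquitin gene Ubb rose with a log2 fold change of 0.24. The shuttle genes Ubqln1 and Rad23b fell by 0.19 and 0.08 on the log2 scale, and Zfand5, Ubqln4 and Faf1 by 0.10 each. Of these, Ubqln4 and Faf1 were named after their values were seen. Ufd1l, a cofactor of Vcp, counted 34, 40 and 22 in CON and 302, 113 and 109 in sTREM-1 libraries, a log2 fold change of 2.36 (SE 0.29), and its counts varied widely among the sTREM-1 libraries.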

How the data were processed

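RNA of BV2 cells was sequenced in 3 CON and 3 sTREM-1 libraries. The authors checked the reads with FastQC, quantified them with RSEM and used edgeR, and the deposited table holds raw whole-number counts by gene symbol. The submitters' processing notes list HISAT2 2.0.4 and the human builds hg19 and GRCh38, while the gene symbols are those of mouse, and annotation and strand are not given in the sources used here. Reads of overlapping genes and of near-identical copies may therefore have been split. All 6 sample columns were used.

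Conditions came from the labels. Genes of low counts were removed (filterByExpr, minimum 10) and libraries were scaled with TMM factors. The groups were compared without covariates by the quasi-likelihood test (edgeR 4.0.16, R 4.3.3), and the limit of the Benjamini-Hochberg adjusted p-value was 0.05. The F statistic and the fold change gave the SE. The procedure was tested on simulated counts, where the share of false calls was above the nominal limit and changes were recovered in part, fewer of the small than of the large ones. Libraries of a group differed by more than sampling noise (chi-square per gene of at least 3.45), and each was kept as a replicate. Named with values were the 8 members of largest rise and fall among those called with separate groups, of which 4 fell, the catalytic subunits, the activators and the 20S chaperones. Members and lists were chosen with earlier results of these data known. Some genes and motifs of the lists are not reported here.

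Alternatives were other scalings, filters, tests (DESeq2 1.42.0, edgeR's exact test) and thresholds, a replicate block and leaving out each library. Copies were sought with blastn in GENCODE M21 transcripts (at least 90% identity over 50% of the length), and adding their counts was an alternative chosen after seeing the data. Counting error is largest for Psmg1 and Psmb6, the members of fewest counts. It is not negligible for other members of low counts, such as Psmg4 with 582 to 668 counts per library. Intervals and tests do not cover counting choices.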

Additional observations from a re-analysis of the deposited data

How the results depend on the processing

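Changes of the members were small, so that thresholds mattered most. Of the 14 members called higher, 9 had an adjusted p-value under 0.01 and 1 also reached a 1.2-fold change, and of the 5 called lower, 0 reached it (Psmg3 was nearest at -0.26), by edgeR's quasi-likelihood test. At the main threshold the numbers stayed within 1.5 times of 14 and 5 under all alternatives, from 10 to 12 higher and from 4 to 6 lower across the 6 fits that each left out 1 library, and DESeq2 called 12 higher and 5 lower. Over all tested genes, upper quartile factors gave 1977 higher and 2383 lower, against 2324 and 1988. With near-identical copies added, an alternative chosen after seeing the data, 15 were higher.

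The replicate block gave 16 higher and 6 lower members. Deviations of same-numbered libraries correlated at -0.02, -0.03 and -0.01 across genes. With 3 libraries in each group these values cannot decide whether same-numbered libraries were paired, and the labels do not say.

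The median log2 fold change of 0.0352 of all members, and that of 0.0352 of the 19S cap, both fell to 0.0143 with upper quartile factors. Leaving out 1 library, the first ran from 0.0205 to 0.0350, the second from 0.0128 to 0.0367 and that of the 20S core, 0.0744 with all libraries, from 0.0603 to 0.0966. Both were lowest without CON replicate 3, and without CON replicate 2 they were 0.0232 and 0.0199. The cause was not tested.

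Of 278 values of 21 named members under alternatives, 7 changed sign, and these were of genes that were not called. Psme4 turned to -0.0077 with upper quartile factors, and leaving out 1 library gave -0.007 to 0.032 for Psme4, -0.1006 to 0.0014 for Psmb5 and -0.1385 to 0.0603 for Psmb6. Psmg1 had under 10 counts in 1 library and gave no value with the stricter filter. With few counts, the depth limits Psmg1 and Psmb6 most.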
